A study of Mus musculus with 12 samples.

Results

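The bile acid genes described here are 10 genes of bile acid synthesis, conjugation, transport and control, taken by symbol from the gene lists of a mouse liver single-cell RNA sequencing study. They are 10 of the 22519 genes present in the lists of both stages studied. Cyp7a1, Cyp8b1 and Cyp27a1 code for sterol hydroxylases, Slc27a5 and Baat for the enzymes that conjugate bile acids, Slc10a1, Abcb11 and Abcb4 for membrane transporters, and Nr1h4 and Nr0b2 for nuclear receptors. Hepatocytes make bile acids from cholesterol, couple them to taurine or glycine, and pump them into the bile canaliculi together with phospholipid. Bile acids returning from the gut are taken up again across the sinusoidal membrane. The bile acid receptor Nr1h4 (FXR) raises transcription of Abcb11 and of Nr0b2 (SHP), and Nr0b2 in turn represses Cyp7a1 and Cyp8b1. The comparison asked how these genes differed between the fetal liver, a blood-forming organ, and the liver shortly after birth.

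Livers came from mice with the Nodder allele of Jag1, a missense allele of a Notch ligand, at the embryonic stage E16.5 and at P3, 3 days after birth. Genotypes named were Jag1+/+, Jag1Ndr/+ and Jag1Ndr/Ndr, with 2 individuals for each genotype and stage, all from crosses of heterozygotes. Cells were dissociated with enzymes, dead cells were removed magnetically, and droplet libraries were sequenced. TrypLE was used at E16.5 only, and homozygous P3 pups were picked by their jaundice. The deposited matrices were not all distinct. At E16.5, 1 matrix had been deposited under 2 labels, Jag1+/+ replicate 2 and Jag1Ndr/+ replicate 2, and is called the shared library. At P3, the matrix labelled Jag1Ndr/Ndr replicate 1 held 19927 barcodes of that labelled Jag1+/+ replicate 1, and Jag1+/+ replicate 2 contained each of the 15754 barcodes given for Jag1Ndr/+ replicate 2. The P3 matrix labelled Jag1Ndr/Ndr replicate 2 shared 18105 barcodes with the one and 16145 with the other of these Jag1+/+ matrices. The 4 P3 libraries used were therefore called A (Jag1+/+ replicate 1) and B (Jag1+/+ replicate 2), whose genotype is unclear, C (Jag1Ndr/Ndr replicate 1 after removal of the barcodes in A) and D (Jag1Ndr/+ replicate 1). Stage, dissociation, software version and gene list went together and cannot be told apart. Because Nodder is a missense allele, the level of Jag1 RNA checks no label.

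Promoter sequences were matched in RefSeq (GRCm38.p6) for 7 of the 10 genes, over windows from 250 bases before to 50 bases after the annotated start. Of these, 3 are shown because their genes lie in the Nr1h4 and Nr0b2 loop just described and because short motifs of known liver factors were found in them by search. Capitals mark the motif matches, which were chosen after the sequences had been seen and are letters in a window, not tested sites. Each sequence is written 5' to 3' in the direction of transcription, so that Abcb11 and Cyp8b1 are on the minus strand and Nr0b2 is on the plus strand.
Abcb11, chr2:69342567-69342866: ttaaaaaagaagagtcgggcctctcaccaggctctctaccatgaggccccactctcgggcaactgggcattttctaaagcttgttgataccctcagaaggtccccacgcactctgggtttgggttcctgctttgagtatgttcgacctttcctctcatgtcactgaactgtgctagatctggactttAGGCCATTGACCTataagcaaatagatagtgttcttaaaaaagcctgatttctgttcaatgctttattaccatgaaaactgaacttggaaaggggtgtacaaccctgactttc
Nr0b2, chr4:133553126-133553425: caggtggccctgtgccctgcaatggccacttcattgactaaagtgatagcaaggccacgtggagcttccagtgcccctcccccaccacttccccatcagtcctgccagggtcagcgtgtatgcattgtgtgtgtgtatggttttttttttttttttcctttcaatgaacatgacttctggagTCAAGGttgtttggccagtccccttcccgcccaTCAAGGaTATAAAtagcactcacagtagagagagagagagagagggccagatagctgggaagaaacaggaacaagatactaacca
Cyp8b1, chr9:121916256-121916555: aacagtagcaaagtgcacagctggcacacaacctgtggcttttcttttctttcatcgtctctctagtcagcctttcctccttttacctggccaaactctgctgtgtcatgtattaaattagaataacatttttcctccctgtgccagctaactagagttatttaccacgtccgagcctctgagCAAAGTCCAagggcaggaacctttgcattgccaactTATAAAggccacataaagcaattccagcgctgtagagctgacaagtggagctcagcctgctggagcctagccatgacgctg
The Abcb11 window held AGGCCATTGACCT, starting 63 bases before the start. It matches the inverted repeat AGGNCA, any 1 base, TGACCT, the form of element that Nr1h4 binds with Rxra, which was found on either strand in 12 of 32851 mouse promoter windows (0.0365%). The Nr0b2 window held TCAAGG, the core that Nr5a2 binds, at 68 and 35 bases before the start, a motif present in 14.4% of all windows. In the Cyp8b1 window, CAAAGTCCA, a sequence of the kind bound by Hnf4a, began 67 bases before the start and was present in 0.475% of all windows. TATAAA stood 28 bases before the start of Nr0b2 and 31 bases before that of Cyp8b1, and was present in 13.6% of all windows. Slc10a1 had it on the opposite strand, 128 bases before the start. These motifs did not overlap one another in the 3 windows shown.

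Passing barcodes, with at least 1000 UMIs (unique molecular identifiers, counts of RNA molecules) and at most 15% mitochondrial UMIs, numbered 18357 to 29034 per E16.5 library and 15024 to 21504 per P3 library. Any pair of libraries shared at most 0.940% of the smaller one's passing barcodes. Cells were clustered with the 10 genes and their pathway left out, and clusters named hepatocyte-like from 25 marker genes held 367, 681, 738, 546 and 773 cells in the E16.5 libraries and 628, 338, 163 and 173 in P3 libraries A to D. Here and below, E16.5 values are listed for Jag1+/+ replicate 1, then for the shared library, for Jag1Ndr/+ replicate 1 and for Jag1Ndr/Ndr replicates 1 and 2, and P3 values for A, B, C and D. All 25 hepatocyte markers were detected in each library, and no cluster was named cholangiocyte-like. Much of the class was rich in globin RNA, which made up 16.9% to 34.1% of its UMIs at E16.5 and 14.0% to 26.3% at P3. The globin-rich cluster of E16.5 held 279, 461, 610, 442 and 634 cells, with 41.6% to 59.5% globin UMIs. That of P3 held 249, 136, 100 and 65 cells, with 54.1% to 68.4%. These clusters differed in Alb, at 10821 to 17658 per 1000000 UMIs at E16.5 and at 699 to 1132 at P3. The class thus did not hold the same mix of cells at both stages. The most Alb-rich cluster of each stage, with 88, 220, 128, 104 and 139 cells at E16.5 and 290, 160, 51 and 92 at P3, held 4.70% to 7.74% and 0.699% to 1.82% globin UMIs. Results are therefore given for the class and for this cluster.

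In hepatocyte-like cells, 9 of the 10 bile acid genes were higher at P3 than at E16.5 by the test across all genes, led by Cyp8b1 and Slc10a1. The remaining gene, Nr0b2, went from a few UMIs per library at E16.5 to an easily counted RNA at P3. It passed the filter on low counts through its P3 counts alone and so had to differ, and it is described by its counts. The test was edgeR's quasi-likelihood test on UMI sums per library, 5 against 4, with Benjamini-Hochberg adjustment over all 10304 genes tested and a threshold of 0.05. It called 42.0% of these genes, 22.0% higher and 20.0% lower at P3, so that a change by itself was common. Among the genes that did not pass the filter through P3 alone, 20.1% were called higher. The median log2 fold change was 1.74 over the 9 genes without Nr0b2 and -0.02 over all genes tested. In 7 of the 9, every P3 library lay above every E16.5 library, as was the case for 14.0% of all genes tested. The exceptions were Cyp7a1 and Baat. The 10 genes were chosen with earlier results of these data known, so their counts beside all genes are a description. Levels below are UMIs of the gene per 1000000 UMIs of the class (CPM) and each difference is a log2 fold change, P3 minus E16.5, with its standard error (SE). For 2 hepatocyte genes outside the pathway, Alb and Afp, the log2 fold changes were -1.50 and -1.82, and for the lipid-binding protein gene Fabp1 it was 3.11.

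**Figure D1:**
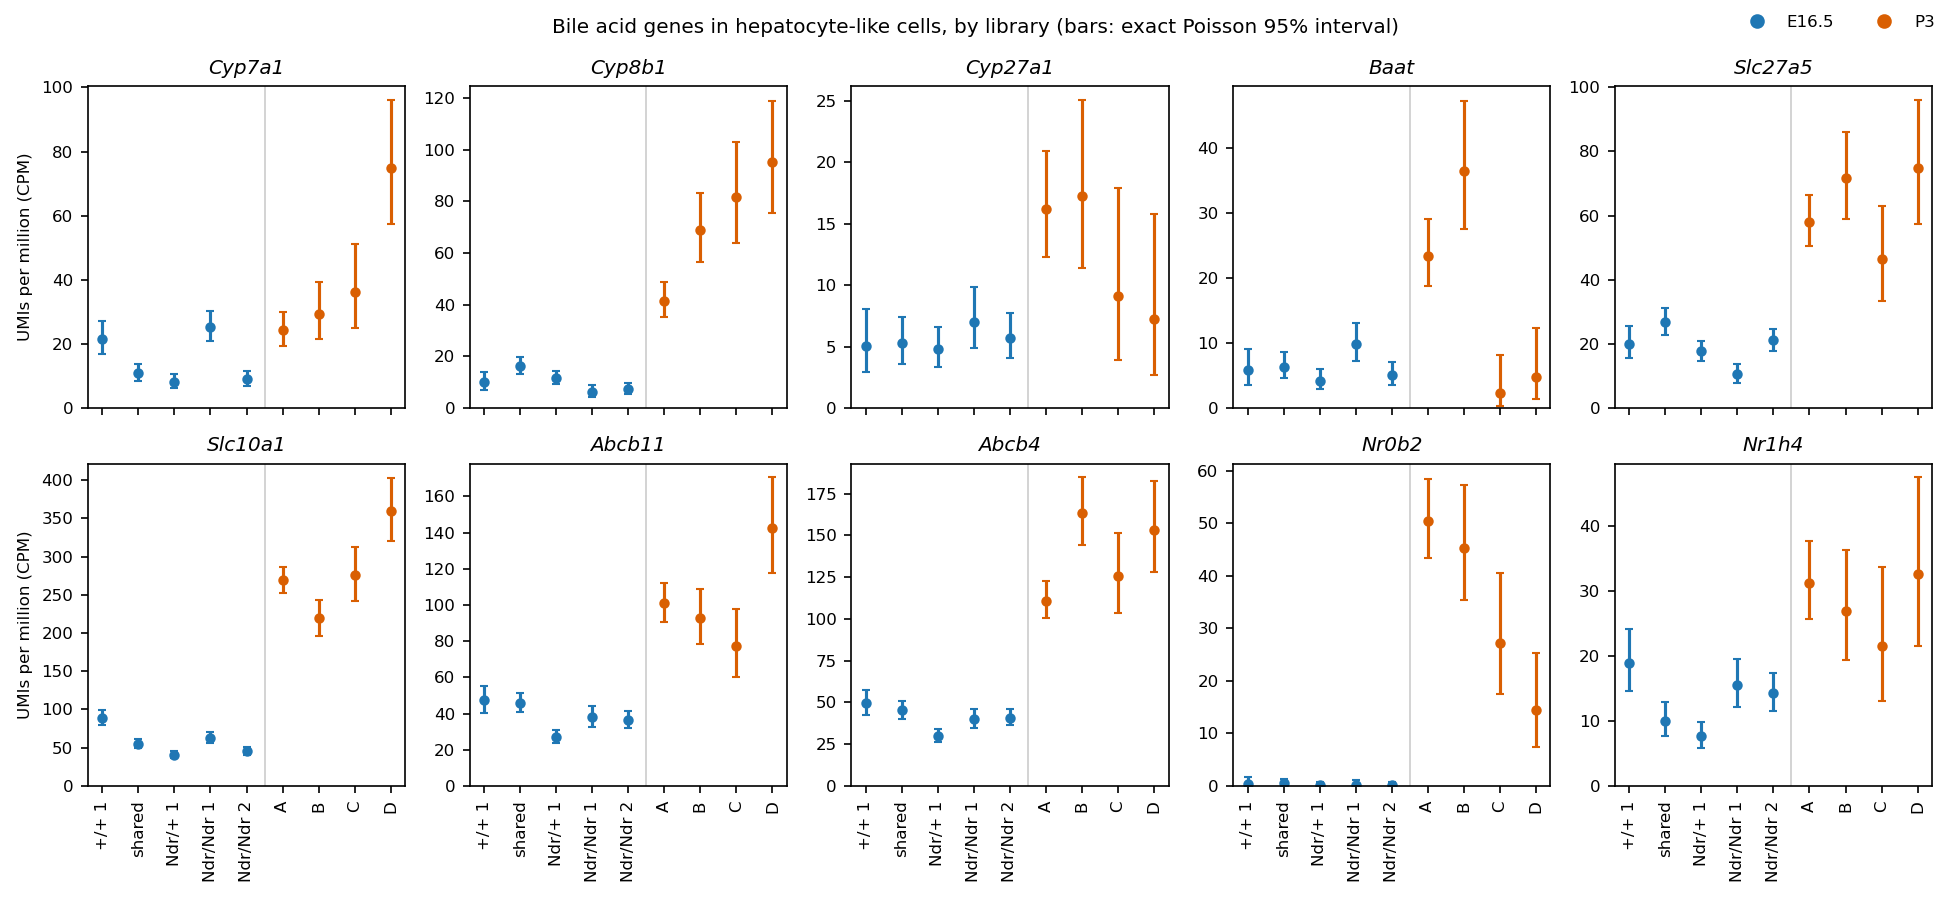
Level of each bile acid gene in hepatocyte-like cells (y axis, CPM, linear from 0) in the 5 E16.5 libraries (blue) and the 4 P3 libraries (orange). Points are single libraries and bars are exact Poisson 95% intervals, which cover counting error only. Orange points lie above all blue points except in the panels of Cyp7a1 and Baat.

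Among the enzymes of synthesis, Cyp7a1, which catalyses the rate-limiting step of the classic pathway, lies at chr4:6265612-6275633 (minus strand, GRCm38). Its level was 21.5, 10.8, 8.16, 25.2 and 8.97 CPM at E16.5 and 24.3, 29.4, 36.3 and 74.9 CPM at P3. The ranges touched, because library A fell just below E16.5 Jag1Ndr/Ndr replicate 1, and library D stood well above the rest. On the log2 scale, the difference was 1.49 (SE 0.370, adjusted p = 0.00564).

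Cyp8b1, the hydroxylase that directs synthesis toward cholic acid, lies at chr9:121914356-121916305 (minus strand). It stood at 10.0, 16.2, 11.6, 6.18 and 7.40 CPM at E16.5 and at 41.6, 69.0, 81.7 and 95.4 CPM at P3. The lowest P3 library was thus far above the highest E16.5 library. The means were 10.3 ± 3.95 CPM (SD, n = 5) and 71.9 ± 22.9 CPM (SD, n = 4), and the log2 fold change, 2.82 (SE 0.268, adjusted p = 3.58e-06), was the largest among the enzymes of the 10 genes.

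Cyp27a1, a mitochondrial hydroxylase that begins the alternative, acidic pathway and also acts in the side chain, lies at chr1:74713574-74737892 (plus strand). Its E16.5 values of 5.01, 5.25, 4.76, 7.03 and 5.69 CPM were nearly level. At P3 it stood at 16.2 and 17.2 CPM in A and B, but at only 9.08 and 7.24 CPM in C and D, from 8 and 6 UMIs. On the log2 scale, the difference was 1.37 (SE 0.267, adjusted p = 0.00115). Without the libraries that carry several labels, A, B and the shared library, it was 0.53 with adjusted p = 0.380, so that its call rested on those libraries.

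Conjugation needs Slc27a5, the bile acid CoA ligase, and then Baat, which transfers the acid to taurine or glycine. Slc27a5 (chr7:12988346-12998192, minus strand) was counted at 20.1, 26.7, 17.7, 10.4 and 21.1 CPM at E16.5 and at 58.0, 71.6, 46.5 and 74.9 CPM at P3, with no overlap. The log2 fold change of Slc27a5 was 1.79 (SE 0.209, adjusted p = 2.11e-05). Baat (chr4:49489422-49506557, minus strand) did not move evenly. It stood at 5.90, 6.37, 4.22, 9.81 and 5.12 CPM at E16.5, at 23.4 and 36.4 CPM in P3 libraries A and B, and at 2.27 and 4.83 CPM in C and D, from 2 and 4 UMIs. For Baat, the log2 fold change came to 1.74 (SE 0.465, adjusted p = 0.00890). The call was lost without library A (1.54, adjusted p = 0.0506) and without library B (1.25, adjusted p = 0.0583), and with only the libraries of 1 label the value was -0.81 (adjusted p = 0.375). Baat was thus above all its E16.5 values in libraries A and B alone, whereas Slc27a5 was above all of its own in each of the 4 P3 libraries.

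All 3 transporters were higher at P3. Slc10a1, the sodium-dependent carrier that takes bile acids up from the blood, lies at chr12:80953183-80968705 (minus strand). Its level was 88.8, 54.8, 41.0, 62.7 and 45.8 CPM at E16.5 and 269, 219, 276 and 360 CPM at P3. Even the lowest P3 library, B, was far above the highest E16.5 library, and the log2 fold change came to 2.37 (SE 0.190, adjusted p = 8.14e-07).

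Abcb11, the canalicular bile salt export pump, lies at chr2:69238282-69342616 (minus strand). It stood at 47.2, 45.9, 27.1, 38.2 and 36.4 CPM at E16.5 and at 101, 92.6, 77.2 and 142 CPM at P3. On the log2 scale, the difference was 1.50 (SE 0.159, adjusted p = 9.64e-06). An antisense gene, Gm13613, and a pseudogene, Gm13614, overlap it, and the sources used here do not say whether counting used strand, so their reads cannot be told apart from those of Abcb11.

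Abcb4, which moves phosphatidylcholine into bile and so protects the duct lining from bile salts, lies at chr5:8893717-8959231 (plus strand) and is overlapped by the pseudogene Gm17936. It stood at 49.6, 45.2, 29.8, 40.1 and 40.8 CPM at E16.5 and at 111, 164, 126 and 153 CPM at P3, again with no overlap. For Abcb4 the log2 fold change came to 1.85 (SE 0.143, adjusted p = 5.89e-07). The ratio of the means was smaller for Abcb11 (38.9 ± 8.12 to 103 ± 27.9 CPM, SD) than for Slc10a1 (58.6 ± 18.8 to 281 ± 58.3 CPM), although the difference between genes was not tested.

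Of the regulators, Nr1h4, the bile acid receptor, lies at chr10:89454234-89533585 (minus strand). Its level was 18.9, 10.0, 7.62, 15.6 and 14.2 CPM at E16.5 and 31.2, 26.8, 21.6 and 32.6 CPM at P3. These groups did not overlap, but Nr1h4 had the smallest log2 fold change of the 9 genes, 1.23 (SE 0.230, adjusted p = 8.53e-04). With only the libraries of 1 label it was 0.98 (adjusted p = 0.0502).

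Nr0b2, a receptor without a DNA-binding domain that acts as a repressor, lies at chr4:133553376-133556536 (plus strand). Only 1, 3, 1, 1 and 1 of its UMIs were found in the E16.5 libraries, or 0.136 to 0.478 CPM. At P3 there were 181, 71, 24 and 12, or 50.5, 45.4, 27.2 and 14.5 CPM. Summed over libraries, 288 of 6859925 UMIs at P3 against 7 of 28738745 at E16.5 gave a 172-fold ratio with a 95% counting interval of 82.6 to 433. A fitted fold change at such low counts depends on the count added for shrinkage and is not given. Libraries A and B, with the most cells, were also the highest, and D was the lowest at P3.

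**Figure D2:**
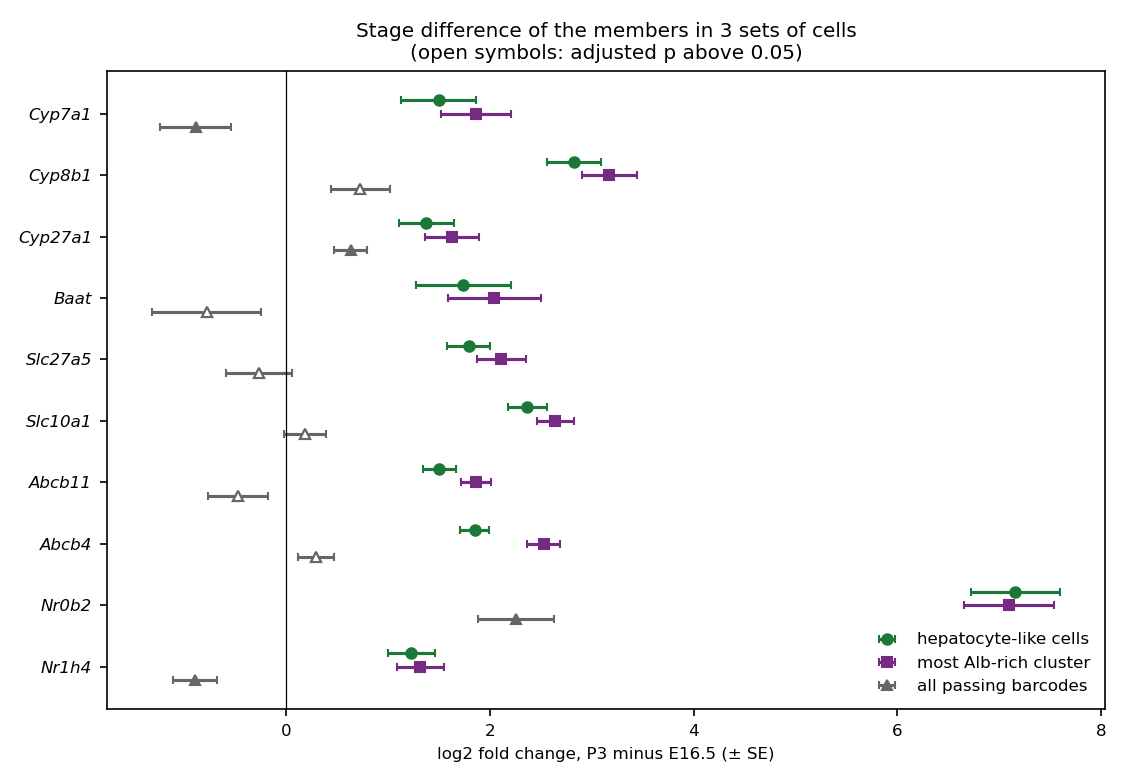
Log2 fold change, P3 minus E16.5 (x axis, with SE bars), of each bile acid gene in all hepatocyte-like cells (circles), in the most Alb-rich hepatocyte-like cluster (squares) and over all passing barcodes (triangles). Filled symbols passed the threshold of 0.05 on the adjusted p and open ones did not. All circles and squares are filled and lie right of 0, whereas the triangles lie on both sides of it. The circle and square of Nr0b2 rest on 7 or fewer UMIs at E16.5 in all, so their place and filling support nothing.

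The same direction was found in the most Alb-rich cluster, a set of cells chosen with the data in view. There, 9786 genes were tested and 41.7% called, 21.2% higher and 20.5% lower. Among those that did not pass the filter through P3 alone, 19.4% were called higher. The 9 bile acid genes other than Nr0b2 were called higher, with a median log2 fold change of 2.04. Of these 9, 7 had every P3 library above every E16.5 library, as had 11.5% of all genes tested there. Baat was at 6.52 to 14.8 CPM at E16.5 but at 4.73 and 6.72 CPM in P3 libraries C and D, and Cyp27a1 at 10.1 CPM in D lay within its E16.5 range of 7.38 to 10.4 CPM. Slc10a1 was at 126, 76.9, 73.0, 93.7 and 76.3 CPM at E16.5 and at 470, 368, 526 and 490 CPM at P3. Cyp8b1 was at 8.52 to 21.2 CPM and 74.7 to 163 CPM. Nr0b2 was at 0.273 to 0.714 CPM and at 73.2, 71.1, 52.1 and 16.8 CPM, a ratio of 143 (95% counting interval 68.4 to 360). Compared with the class as a whole, the largest shift was that of Abcb4, from 1.85 to 2.53. Its E16.5 level was about the same in the Alb-rich cells (34.4 to 47.9 CPM) as in the globin-rich ones of the class (25.4 to 66.9 CPM), which is not so for the other carriers. Slc10a1 in those globin-rich cells stood at 10.1 to 24.2 CPM. Beside globin-rich cells, this cluster leaves out a further P3 cluster of 89, 42, 12 and 16 cells with 0.530% to 4.88% globin UMIs and less Alb. In all cells of the class with under 5% globin UMIs, the log2 fold changes of the 9 genes were 1.20 to 3.02, against 1.23 to 2.82 in the class. There, 6 of the 9 genes had every P3 library above every E16.5 library. The share of all genes doing so was not counted, so this number is no support. The part of globin RNA in the differences was not tested.

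Depth per cell went the other way. Alb-rich cells had median counts of 18344 to 27773.5 UMIs at E16.5 and of 2029 to 8485 UMIs at P3. Their median mitochondrial shares overlapped, at 6.86% to 8.76% and 6.47% to 10.3%. When each cell was thinned to 2000 UMIs, Slc10a1 was found in 14.3% to 23.5% of cells per E16.5 library and in 50.5% to 59.7% per P3 library. Without thinning these shares were 59.5% to 79.5% and 51.2% to 86.3%, which overlap. Thinned shares were 2.56% to 5.24% and 11.7% to 25.9% for Cyp8b1, and 6.68% to 8.50% and 20.2% to 26.5% for Abcb4. For Abcb11 they were 9.57% to 12.7% and 16.1% to 27.0%. With depth equal, every P3 library was above every E16.5 library for these 4 genes and for Slc27a5 and Nr1h4, or 6 of the 9 genes without Nr0b2, as for 11.7% of the 9786 genes tested. For Cyp7a1 (2.64% to 7.18% and 6.43% to 15.8%), Cyp27a1 (1.20% to 2.76% and 1.82% to 5.64%) and Baat (1.23% to 2.85% and 1.63% to 9.07%) the ranges overlapped. Unthinned, the shares for Cyp8b1 were 17.3% to 28.9% and 20.0% to 58.8%, those for Abcb4 42.7% to 59.1% and 23.1% to 62.7%, and those for Abcb11 61.5% to 69.8% and 21.2% to 64.7%. At P3, 118, 79, 0 and 33 cells of libraries A to D were too shallow and were left out. As a measure of free RNA, thinned B-like cells, with medians of 1966 to 8098 UMIs before thinning, had Slc10a1 in 0.0779% to 0.569% of cells, the highest share among the 9 genes other than Abcb4. Abcb4 was in 4.36% to 7.52% of B-like cells at E16.5 and in 2.74% to 5.51% at P3. Within a library, its share in Alb-rich cells was above that in B-like cells in 4 of 5 libraries at E16.5 and not in the shared library (6.68% against 7.52%). At P3 it was above it in 4 of 4. Thinned macrophage-like cells had Abcb4 in 7.46% to 14.0% of cells at E16.5, above the Alb-rich share in each library. For erythroid-like cells the E16.5 share was 5.95% to 14.3%, above the Alb-rich one in some libraries only. At P3 these shares were 7.39% to 12.0% and 11.3% to 22.9%, below the Alb-rich share in each library.

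Of 41 other bile acid genes listed by role, 30 passed the filter in hepatocyte-like cells. Of these, 5 (Sult2a1, Nr1i3, Ephx1, Abcg5 and Abcg8) reached the filter's limit of 2.79 CPM in the required 4 libraries through P3 alone, so that their calls, all higher, are no support and they are described by their counts. Of the other 25, 18 were higher at P3, 1 was lower and 6 did not pass the test, with a median log2 fold change of 0.97 against -0.02 over all genes tested. Among all genes that did not pass through P3 alone, 20.1% were called higher. With plain library totals, 19 of the 30 were higher, against 23 with the normalisation used. Both counts are over all 30, with the 5 genes that passed through P3 alone among them, and are no support. The lists were chosen with results of these data known and are a description.

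In synthesis and modification, 10 of 11 genes were higher, Sult2a1 left out. The peroxisomal thiolase gene Acaa1b went from a mean of 13.4 to 249 CPM (log2 fold change 4.27). Akr1c6 (2.79), Cyp3a11 (1.80) and the sterol carrier protein gene Scp2 (1.43) followed. Akr1d1, the reductase of the steroid ring (0.97), Cyp39a1 (1.14), Hsd17b4 (1.11), Acot8 (1.25) and Amacr (0.91) changed less. Cyp2c70, the mouse enzyme that makes muricholic acids, had the smallest value that passed (0.47, adjusted p = 0.0213). Acox2 did not pass (0.25, adjusted p = 0.261). Sult2a1, a sulfotransferase, had 6, 36, 20, 2 and 6 UMIs at E16.5 and 629, 247, 20 and 43 at P3, most of them in library A. Cyp7b1, Ch25h and Hsd3b7 did not pass the filter.

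In transport, 2 of 4 genes were higher, Abcg5, Abcg8 and Ephx1 left out. The sinusoidal uptake carrier gene Slco1b2 went from 28.6 to 198 CPM (2.89). Ephx1 had 99 UMIs in all at E16.5 and 282 at P3, a ratio of 11.9 per UMI of the class (95% counting interval 9.46 to 15.2). Abcg5 and Abcg8, whose products form the canalicular sterol pump, went from 0.205 to 7.67 CPM and from 1.13 to 8.02 CPM. Abcg5 had 1, 1, 0, 0 and 4 UMIs at E16.5, and its summed UMIs gave a ratio of 34.2 (95% counting interval 14.6 to 97.7). For Abcg8 the ratio was 6.34 (4.06 to 10.02). Abcc2, which exports conjugated bilirubin and other conjugates, had a log2 fold change of 0.62. Atp8b1, a canalicular lipid flippase, was the 1 lower gene, at -0.70 (adjusted p = 0.0198). In 5 of the 24 alternative fits, including the one without library B and the one with only libraries of 1 label, no gene of the lists was lower, and in the Alb-rich cluster Atp8b1 was at -0.41 (adjusted p = 0.148). Abcc3 did not pass (0.30). Slco1a1, Slco1a4, Abcc4, Slc51a, Slc51b and Slc10a2 did not pass the filter.

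In regulation, 6 of 10 genes were higher, Nr1i3 left out. They were Nr1h3 (1.52), Ppara (1.26), Rxra, the partner of Nr1h4 (1.07), Nr1i2 (1.05), Prox1 (0.67) and Hnf4a (0.58). In cells of the class with under 5% globin UMIs, 4 of 10 regulators were higher and 6 did not pass. Of all genes there that did not pass the filter through P3 alone, 18.7% were called higher. Nr1i3, a xenobiotic receptor, had 5, 21, 13, 2 and 20 UMIs at E16.5 and 176, 102, 39 and 75 at P3, a ratio of 26.9 (95% counting interval 20.5 to 35.9). Nr5a2, whose motif is in the Nr0b2 window shown above, had 0.07 (adjusted p = 0.786). Fgfr4 and Klb, the receptor pair for the gut hormone that represses Cyp7a1, had -0.81 (adjusted p = 0.0907) and -0.26 (adjusted p = 0.449). Foxa2 (-0.25) did not pass either. Gpbar1 and Nr2f1 did not pass the filter.

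**Figure D3:**
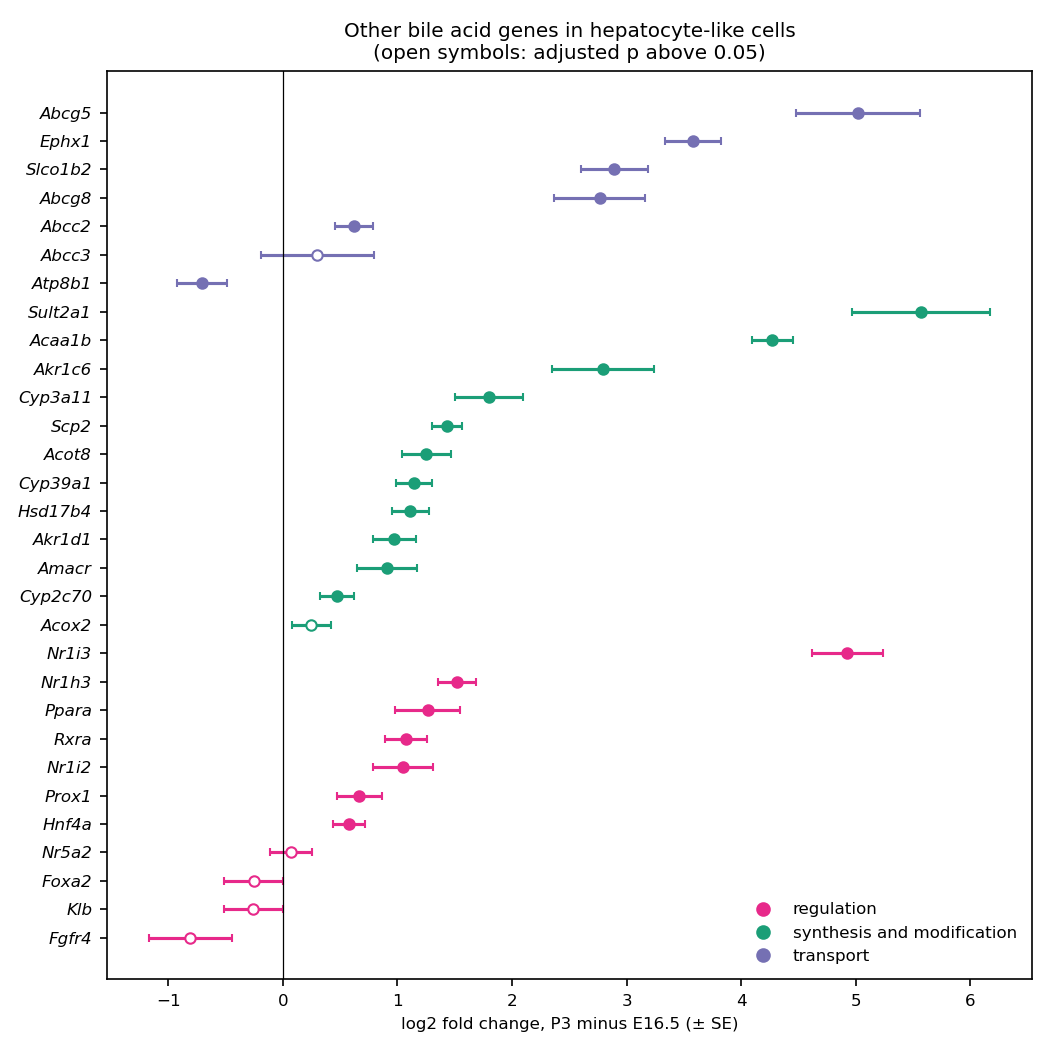
Log2 fold change, P3 minus E16.5, in hepatocyte-like cells (x axis, with SE bars) of the 30 other bile acid genes that passed the filter, coloured by role. Filled symbols passed the threshold of 0.05 on the adjusted p. The place and filling of Sult2a1, Nr1i3, Ephx1, Abcg5 and Abcg8, which passed the filter through P3 alone, support nothing, and Atp8b1 is the filled symbol left of 0.

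Outside hepatocyte-like cells, most of the 10 genes were near 0, with exceptions. Hepatocyte-like cells held 59.8% to 68.3% of all Slc10a1 UMIs per library at E16.5 and 62.9% to 80.8% at P3. They held 47.5% to 76.7% and 62.7% to 65.1% for Cyp8b1, 57.0% to 84.6% and 67.5% to 89.9% for Slc27a5, and 2.27% to 13.04% and 33.3% to 55.5% for Nr0b2. The remainder of Slc10a1 was spread thinly, at 1.03 to 1.57 CPM in E16.5 erythroid-like cells.

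Nr0b2 was also counted in myeloid classes, at low levels. In basophil and mast-like cells it was at 2.03, 1.13, 1.06, 0.586 and 2.26 CPM at E16.5, above its level in hepatocyte-like cells of that stage, and at 4.89, 3.04, 3.90 and 4.30 CPM at P3. Monocyte-like cells had 0.159 to 0.628 CPM and 0.972 to 1.77 CPM, and neutrophil-like cells 0.169 to 0.406 CPM and 0.462 to 1.06 CPM. In macrophage-like cells (0 to 0.959 CPM and 0.662 to 1.85 CPM) and erythroid-like cells (0 to 0.124 CPM and 0.0551 to 0.476 CPM) the stages overlapped. No test was run on Nr0b2 in these classes, and the part of free RNA in the values was not tested.

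Abcb4 was the opposite case. Erythroid-like cells held 67.9% to 74.8% of its UMIs at E16.5 and 78.4% to 87.8% at P3, while hepatocyte-like cells held only 2.90% to 4.51% and 1.50% to 5.40%. Its level in erythroid-like cells was 50.2, 79.6, 33.1, 35.5 and 53.2 CPM at E16.5 and 98.3, 137, 132 and 155 CPM at P3. This was about as high as in hepatocyte-like cells taken as a class. In the Alb-rich cluster it stood at 34.4 to 47.9 CPM at E16.5, within the erythroid-like range. At P3 it stood there at 173, 235, 159 and 178 CPM, above the erythroid-like value of each library. In erythroid-like cells, Abcb11 did not exceed 1.24 CPM and Slc10a1 did not exceed 1.71 CPM, so the 3 transporters did not share this signal.

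Cyp27a1 was found in some of the myeloid classes. Neutrophil-like cells held little of it, at 0.212 to 0.812 CPM at E16.5 and 0.425 to 0.849 CPM at P3. In monocyte-like cells it was at 11.6, 8.35, 8.34, 10.5 and 9.11 CPM at E16.5 and at 8.47, 9.88, 8.12 and 8.78 CPM at P3. In dendritic-like cells, found as a cluster at P3 only, it was at 46.8, 69.0, 40.5 and 39.3 CPM, above its level in hepatocyte-like cells of the same libraries. Cyp8b1 was also counted there, at 19.2, 12.7, 17.5 and 32.4 CPM, from 34, 16, 22 and 33 UMIs. Cyp7a1 had no UMI in these cells, which allows up to 1.69 to 2.95 CPM per library (3 counts of its total).

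Nr1h4 stood at 60.6, 72.1, 15.2, 37.2 and 31.7 CPM in E16.5 mesenchymal-like cells and at 11.1, 29.1, 90.2 and 78.3 CPM in those of P3. These values rest on 4 to 20 UMIs per library, and the groups overlap widely.

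**Figure D4:**
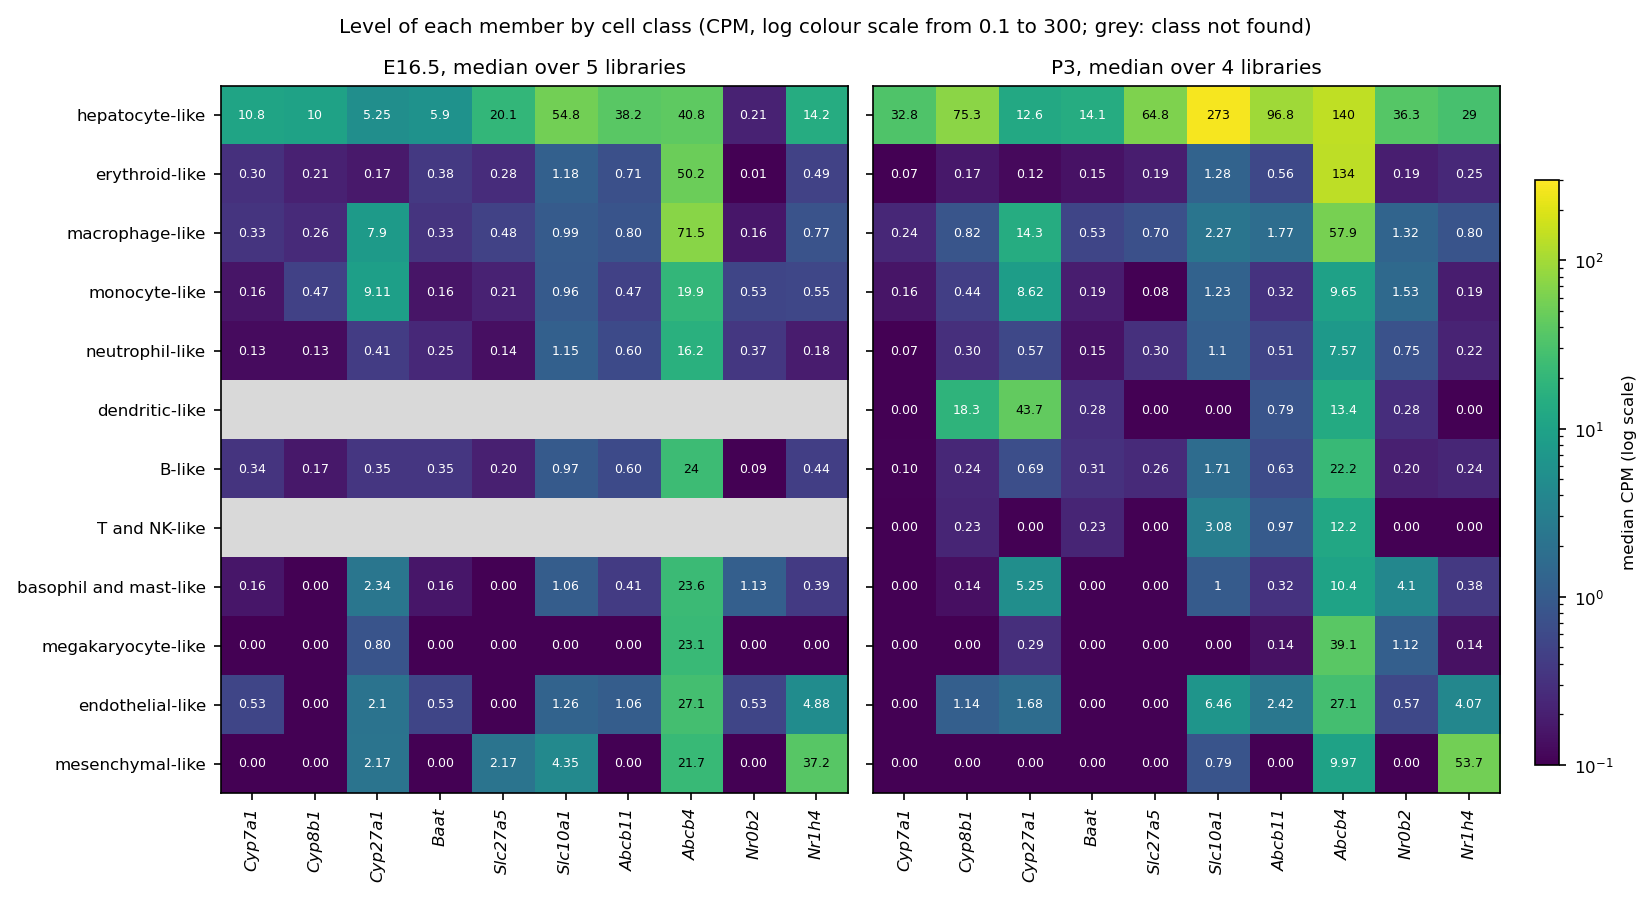
Median level (CPM, log colour scale, values printed in the cells) of each bile acid gene in each cell class, over the 5 E16.5 libraries (left) and the 4 P3 libraries (right). Grey marks classes not found at a stage. The hepatocyte-like row is the brightest for most genes, the Abcb4 column is bright in several classes, and Cyp27a1 is brightest in dendritic-like cells at P3.

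In macrophage-like cells, the stage comparison could be made for Cyp27a1 and Abcb4. The other 8 genes did not pass the filter there. Cyp27a1 stood at 8.82, 7.90, 7.34, 7.23 and 8.38 CPM at E16.5 and at 14.0, 14.6, 16.1 and 13.2 CPM at P3, with no overlap, as for 30.3% of all genes tested there, and was higher at P3 by 0.56 on the log2 scale (SE 0.146, adjusted p = 0.00673, edgeR). Abcb4 stood at 71.5, 82.3, 43.4, 54.0 and 82.3 CPM and at 44.8, 50.6, 65.3 and 70.1 CPM. These ranges overlap, and the test called it lower at P3, at -0.52 (SE 0.144, adjusted p = 0.00906). Of the 10790 genes tested, 50.8% were called, 25.3% higher and 25.4% lower. With plain library totals, which moved the median of all genes to 0.32, Abcb4 was at -0.22 (adjusted p = 0.409), so its call in macrophage-like cells depends on the scaling. With only the libraries of 1 label neither gene passed. RNA of other classes was present and differed between stages. Globin RNA made up a median of 26.7% of the UMIs of macrophage-like cells over the E16.5 libraries and 16.9% over the P3 libraries. Of 23 erythroid-like markers, 22 were detected in each E16.5 library and 21 to 22 in each P3 library, at 23.4% to 39.1% and 15.5% to 26.6% of UMIs. The 19 neutrophil-like markers were all detected, at 0.0930% to 0.238% and 1.06% to 3.15%. Erythroid-like cells hold Abcb4, at 33.1 to 79.6 CPM at E16.5 and at 98.3 to 155 CPM at P3. The part of RNA of other classes in the call on Abcb4 was not tested.

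The difference between classes was tested directly for Abcb4 and Cyp27a1, a step chosen with the data in view. The log2 ratio of the Abcb4 level in hepatocyte-like cells to that in macrophage-like cells was -0.68 ± 0.249 (SD, n = 5) at E16.5 and 1.27 ± 0.319 (SD, n = 4) at P3. The difference of 1.94 had an exact permutation p of 0.0159, the smallest that 5 against 4 libraries allow, and an adjusted value of 0.0476 over 3 such tests. Against erythroid-like cells the difference was 0.32 (adjusted exact permutation p = 0.190), and for Cyp27a1 against macrophage-like cells it was 0.21 (adjusted exact permutation p = 0.603). The latter 2 differences did not pass. Globin RNA was present on both sides of these ratios, with the medians just given in macrophage-like cells and 26.2% and 24.8% in hepatocyte-like cells at E16.5 and P3, and every P3 library lay above every E16.5 library in the level of Abcb4 in erythroid-like cells. The part of this RNA in the ratios was not tested.

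Summed over all passing barcodes, as a bulk measurement of the dissociated liver would be, the bile acid genes gave a different picture. Nr0b2 and Cyp27a1 were higher at P3, Cyp7a1 and Nr1h4 were lower, and 6 did not pass. Of the 14504 genes tested, edgeR called 54.0%, 27.6% higher and 26.4% lower. The median log2 fold change was -0.04 over the 10 genes and 0.02 over all. In such sums, fewer hepatocytes and less RNA per hepatocyte cannot be told apart.

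Nr0b2 was at 0.148, 0.173, 0.0916, 0.126 and 0.231 CPM at E16.5 and at 1.89, 1.16, 0.756 and 0.564 CPM at P3 (log2 fold change 2.25, SE 0.371, adjusted p = 5.23e-04). Cyp27a1 was at 0.777 to 1.50 CPM and at 2.13 to 3.24 CPM (0.63, SE 0.159, adjusted p = 0.00621). Neither pair of groups overlapped, nor did that of Cyp8b1 (0.356 to 0.985 CPM and 1.13 to 1.83 CPM). This made 3 of the 10 genes, against 37.5% of all genes tested, that were higher in every P3 library. Nr1h4 (-0.90, SE 0.213, adjusted p = 0.00449) and Cyp7a1 (-0.89, SE 0.348, adjusted p = 0.0494) did overlap, at 0.657 to 1.16 against 0.615 to 1.07 CPM and at 0.473 to 1.12 against 0.363 to 0.907 CPM. Their calls depend on the scaling of the libraries and, for Cyp7a1, on single libraries, since 6 of the 9 fits that left out 1 library did not call it (log2 fold change -1.11 to -0.61 over the 9). With plain totals, which moved the median of all genes to 0.61 and the share of higher calls from 51.1% to 85.7%, none of the 10 genes was lower (Nr1h4 -0.31, Cyp7a1 -0.24) and 5 were higher, Slc10a1, Abcb4 and Cyp8b1 besides Cyp27a1 and Nr0b2. Cyp8b1 (0.73, adjusted p = 0.0543), Slc10a1 (0.18), Abcb4 (0.29), Slc27a5 (-0.27), Abcb11 (-0.47) and Baat (-0.78) did not pass with the normalisation used. Alb was at -3.62 and Afp at -3.95 in the same sums.

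Hepatocyte-like cells made up 2.35%, 3.49%, 3.87%, 3.26% and 3.72% of kept cells at E16.5 and 3.23%, 2.13%, 1.12% and 1.11% at P3. The means were 3.34% ± 0.600 (SD, n = 5) and 1.90% ± 1.01 (SD, n = 4), a difference of -1.44 percentage points with a two-sided exact permutation p of 0.0317. This call was lost with doublets kept (p = 0.0794, exact permutation test), at 10% mitochondrial UMIs (p = 0.0794, exact) and in the gate without clustering (p = 0.0635, exact), and in 7 of the 9 comparisons that left out 1 library (exact p = 0.0571 to 0.0714). Library A lay within the E16.5 range. Of barcodes in the gate without clustering, 46.5%, 31.8%, 35.6%, 43.4% and 34.1% at E16.5 had over 15% mitochondrial UMIs. At P3 these were 38.4%, 26.0%, 15.1% and 10.2%. Such barcodes had been left out, and no share was computed with them. In the Alb-rich cluster alone, the difference was 0.130 percentage points (exact permutation p = 0.587), and in cells of the class with under 5% globin UMIs it was 0.650 (exact permutation p = 0.0794), so the direction depended on whether globin-rich cells were counted.

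The genotype comparison at E16.5 set the 2 Jag1Ndr/Ndr libraries against the 3 without that label. The test by edgeR in hepatocyte-like cells called none of 11206 genes (0.00%) at an adjusted p of 0.05, and 231 had an unadjusted p under 0.05. DESeq2 called 3 (0.0268%), all lower in homozygous libraries and none of them a bile acid gene. The 9 bile acid genes tested, all but Nr0b2, had adjusted p = 1.00 by edgeR's test. Cyp8b1 had the largest difference, -0.81 (SE 0.264), with 6.18 and 7.40 CPM in the homozygous libraries and 10.0 to 16.2 CPM in the others. Cyp27a1, at 7.03 and 5.69 against 4.76 to 5.25 CPM, also did not overlap (0.41). Groups of 2 and 3 libraries that do not overlap were found for 11.4% of all genes tested and for these 2 of the 9 bile acid genes, which is not read as a difference. Abcb11 (0.02), Abcb4 (0.08) and Slc10a1 (-0.06) were nearest to 0, while Baat (0.52), Cyp7a1 (0.47), Nr1h4 (0.45) and Slc27a5 (-0.33) overlapped between genotypes.

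At P3, only library C carried the homozygous label alone and only library D the heterozygous one, so that no test between genotypes was possible. The ratio of C to D in hepatocyte-like cells was 0.542 for Abcb11 (95% counting interval 0.396 to 0.736), 0.485 for Cyp7a1 (0.306 to 0.755), 0.621 for Slc27a5 (0.408 to 0.937) and 0.766 for Slc10a1 (0.644 to 0.911). It was 1.88 for Nr0b2 (0.904 to 4.12). Globin RNA made up 26.0% of UMIs of the class in C and 14.0% in D. In the Alb-rich cells, with 1.82% and 1.13% globin UMIs, the ratios were 0.809 for Abcb11 (0.588 to 1.10), 0.705 for Cyp7a1 (0.443 to 1.10), 0.940 for Slc27a5 (0.614 to 1.43) and 1.07 for Slc10a1 (0.896 to 1.28), all with intervals that include 1. That for Nr0b2 was 3.1 (1.41 to 7.33), from 22 and 10 UMIs. These intervals compare 2 libraries and cover counting error only.

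The genes whose log2(CPM + 1) in hepatocyte-like cells followed 9 of the bile acid genes most closely over the 9 libraries were found among genes with a mean of at least 50 CPM. Pearson's r, given as a description since stage is shared by all such genes, was 0.986 for Abcb11 with Pank1, 0.990 for Abcb4 with Galk1, 0.989 for Cyp8b1 with Sin3b and 0.968 for Cyp7a1 with Mtch1. It was 0.971 for Cyp27a1 with Sucla2, 0.970 for Baat with Ass1, 0.975 for Slc27a5 with Plin2 and 0.930 for Nr1h4 with Slc25a13. For Nr0b2 the 3 closest were the B cell genes Cd79a (0.995), Cd79b (0.994) and Igkc (0.990). B-like markers made up 0.00827% to 0.0175% of the UMIs of the class at E16.5 and 0.0630% to 0.124% at P3. In the Alb-rich cells they made up 0.00691% to 0.0166% and 0.00655% to 0.0249%. Nr0b2 had a median of 0.0883 CPM at E16.5 and 0.203 CPM at P3 in B-like cells. The part of B cell RNA in the values of Nr0b2 was not tested.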

How the data were processed

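Livers at E16.5 and P3 were profiled by droplet single-cell RNA sequencing. The authors deposited matrices of unnormalised UMI counts, genes by barcodes, which were written by 10x software 3.1.0 at E16.5 and 3.0.2 at P3, per the file headers. The submitters' processing notes name Cell Ranger 2.1.1, R 4.1.2, Seurat and mm10 without their roles. The aligner's settings, the annotation and whether counting used strand are not given in the sources used here. The gene lists held 31053 genes at E16.5 and 22597 at P3, and the 22519 in both were compared. Gene coordinates are those of GENCODE M21 (GRCm38).

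The 10 genes and the pathway lists were chosen with earlier results of these data known. All 10 genes are named. Other pathway genes are given by counts, with values for those listed. Some genes are not reported here. Clusters were made per stage with scanpy 1.11.5 and igraph 0.11.9 and named from marker lists, after Scrublet had marked 5.18% to 34.3% of barcodes per E16.5 library and 2.12% to 9.50% per P3 library as doublets. Cluster names come from this clustering, so they can differ from those of the study. UMI sums per library were tested with edgeR 4.0.16 in R 4.3.3 (TMM scaling, filterByExpr, quasi-likelihood, Benjamini-Hochberg), with DESeq2 1.42.0 as an alternative. The edgeR test between stages was also run on simulated counts. These held far fewer changed genes than were called in the data, and the other tests were not simulated. Library totals of passing barcodes were 72777843 to 253187351 UMIs. The shallowest passing barcode of a library had 2295 to 3736 UMIs (E16.5) or 1000 to 2399 UMIs (P3), so the shallowest cells differ between stages, which can change shares of cells. Labels name separate individuals, but libraries A, B and the shared library carry several labels, so p-values measure the spread between libraries. Intervals and floors (3 counts) cover counting error only. Alternatives covered scaling, the filter, doublets, UMI and mitochondrial limits, globin-rich cells, a gate without clustering, and leaving out libraries. Those with the Alb-rich cluster alone and the gate without a mitochondrial limit, and the tests between classes, were added after seeing the data. Replicate numbers were not taken as pairs of libraries.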

Additional observations from a re-analysis of the deposited data

Results flagged for a closer look

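Over all passing barcodes, the E16.5 shared library stood apart from the other 4 E16.5 libraries for Slc10a1 (3.87 CPM) and for Abcb11 (2.65 CPM), by Dixon's criterion at the 95% level. These were 2 of 42 groups of libraries examined, and chance marks about 1 group in 20. In hepatocyte-like cells, the same library was not set apart for either gene (54.8 and 45.9 CPM).

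The stage difference of Abcb4 differed between hepatocyte-like and macrophage-like cells as clustered, in a test chosen after the pattern had been seen. The log2 ratio of its level in hepatocyte-like cells to that in macrophage-like cells was higher by 1.94 at P3 (exact permutation p = 0.0159, adjusted 0.0476 over 3 tests), with all 4 P3 libraries (0.95 to 1.69) above all 5 E16.5 libraries (-1.01 to -0.43). Globin RNA made up a median of 26.7% of UMIs in macrophage-like cells at E16.5 and 16.9% at P3, and 26.2% and 24.8% in hepatocyte-like cells, and erythroid-like cells hold Abcb4. Its part was not tested.

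At P3, dendritic-like cells, which enter no comparison of stages because no such cluster was found at E16.5, held Cyp27a1 at a median of 43.7 CPM and Cyp8b1 at a median of 18.3 CPM. In the same cells, Baat, Slc27a5, Slc10a1, Nr0b2 and Nr1h4 had at most 3 UMIs in any library. The part of doublets and of free RNA in the Cyp8b1 signal was not tested.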

How the results depend on the processing

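In hepatocyte-like cells, the 9 bile acid genes other than Nr0b2 were called higher under each alternative run except 3. Nr0b2 passed the filter through P3 alone, and its calls are no support. In the main fit, 22.0% of the 10304 genes tested were called higher, and 20.1% of those that did not pass through P3 alone. The call on Baat was lost without library A and without library B. With only libraries of 1 label, 2523 genes were called in all, Baat turned to -0.81, and Cyp27a1 and Nr1h4 did not pass. Over the fits that left out 1 library, 3749 to 4332 genes and 9 to 10 members, Nr0b2 among them, were called. Of the single-gene values under alternatives in this comparison, those of Nr0b2 included, 235 kept direction and call, 4 lost the call and 1 turned. The cause of each change was not tested.

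Over all passing barcodes, plain totals gave 5 members higher and 0 lower, with Abcb11 at 0.12 and Slc27a5 at 0.32. The lower count was 1 with no filter, with doublets removed, with at least 2000 UMIs and with library sizes without erythroid and neutrophil markers. It was 1 to 2 when 1 library was left out (6835 to 7692 genes called, 2 to 3 members higher). Without the libraries that carry only a homozygous label it was 0, of 5178 genes called. Slc10a1 was -0.068 without P3 Jag1+/+ replicate 1 (-0.068 to 0.35 when 1 library was left out) and -0.12 with only libraries of 1 label. In macrophage-like cells, 0 members were lower with plain totals, 0 were higher and 0 lower with only libraries of 1 label, and 1 to 2 were higher and 1 lower when 1 library was left out (4857 to 5375 genes called).

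Between genotypes, DESeq2 called 3 genes, no filter 7, and the fits without 1 library 0 to 7, none of them a member. Values turned for Abcb11 (-0.10) and Abcb4 (-0.030) with plain totals, for Abcb11 (-0.14) at 10% mitochondrial UMIs and for Slc10a1 (0.020) in the gate. They also turned in some fits without 1 library for Slc10a1 (-0.27 to 0.22), Abcb11 (-0.10 to 0.10), Abcb4 (-0.0094 to 0.17), Cyp7a1 (-0.40 to 1.05) and Slc27a5 (-0.96 to 0.084).

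The difference in the hepatocyte-like share was -1.11 percentage points with doublets kept, -1.24 at 10% mitochondrial UMIs, -0.594 in the gate and -1.88 to -1.18 when 1 library was left out. None of the first 3 passed 0.05 by the exact permutation test, nor did 7 of the 9 that left out 1 library. It turned to 0.650 with cells under 5% globin UMIs and to 0.130 in the Alb-rich cluster.

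Correlations between libraries of a stage were -0.497 to 0.0113 with the same replicate number and -0.574 to 0.0762 with different numbers. Each gene had been centred within its stage, which moves such values below 0, so they cannot decide on pairing. The numbers were not taken as pairs. With the replicate number as a block, 4172 genes were called in hepatocyte-like cells, 7621 over all barcodes, 5359 in macrophage-like cells and 0 between genotypes. The block changed no call of a member, and Slc10a1 between genotypes was 0.0054. Baat, Cyp27a1 and Nr0b2 rest on 24 or fewer UMIs in P3 libraries C and D, which limits their precision.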
